A study of Mus musculus with 15 samples.

Results

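The genes described here encode the thin filament, the giant protein titin, the light chains and accessory proteins of the thick filament, and the Z-disc of the sarcomere, the contractile unit of striated muscle. They are 46 of the 56980 genes in the table, chosen by symbol from their known place in the sarcomere, a rule that uses no measured value although it was set with earlier results of these data known, with the myosin heavy chains and the atrial light chains left out. All 46 were found. By role, 19 belong to the thin filament, 12 are titin or genes of the thick filament and M-band, and 15 are Z-disc or Z-disc-associated genes.

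RNA was sequenced from whole tibialis anterior muscle (TA, a fast limb muscle of the lower leg) and heart of DBA/2J-mdx mice, so every animal lacked dystrophin and no healthy animal enters any comparison. TA came from 4 mice given dasatinib and quercetin (D + Q, a drug pair used to remove senescent cells) and 4 given vehicle, from 3 to 5 months of age. Hearts came from 3 mice given D + Q and 4 given vehicle, from 12 to 16 months of age. Both drugs or vehicle were given 2 times per week, for 2 months before TA and 4 months before heart collection. All 4 D + Q TA mice were male, vehicle TA replicates 1 and 3 were male and 2 and 4 female, vehicle heart replicates 1 and 4 were male and 2 and 3 female, and D + Q heart replicates 1 and 2 were female and 3 was labelled male. Tissue, age and length of treatment cannot be told apart in any comparison of TA with heart. Among D + Q mice, sex as read from expression cannot be told apart from them either. Values are TPM, an abundance scaled to transcript length and to the same total in every library, so levels of different genes can be set side by side within a library. Reading depth is unknown.

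In a sarcomere, actin filaments anchored at the Z-disc slide along myosin filaments held at the M-band, and titin spans from Z-disc to M-band as a molecular spring. Tropomyosin and the 3 troponin subunits lie on the actin filament and open it to myosin when calcium binds troponin C. Most of these proteins come from small gene families whose paralogues are divided among fast skeletal, slow skeletal and cardiac muscle, and several, cardiac troponin I and T among them, are used as blood markers of heart injury.

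The labelled tissues matched their markers. Summed TPM of 10 skeletal fast fibre genes lay between 33265 and 41227 in TA and between 1054 and 1292 in heart. Most of the heart sum was Ckm, at 1042 to 1276 TPM, and 6 of the 10 were under 1 TPM in every vehicle heart. All 7 cardiomyocyte genes listed were lower in vehicle TA than in vehicle heart, by a median of 6.60 on the log2 scale. Features of single libraries bear on what follows and their part in the results was not tested. D + Q heart replicate 3 was labelled male but had 47.2 TPM of Xist and 0.0438 TPM summed over Y-linked genes. D + Q heart replicate 2 carried a trace of fast skeletal transcripts. Atrial muscle genes were higher in vehicle than in D + Q hearts, the 9 of them summing to between 895 and 4370 TPM against 402 to 449.9 TPM.

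The 46 genes made up between 6.73% and 7.75% of all TPM in the 8 TA libraries and between 3.27% and 4.13% in the 7 hearts. Acta1 led in TA with a mean of 13499 TPM, 18.5% of the members' sum, followed by Tnnt3, Tpm1, Mylpf and Myl1. Myl2 led in heart with a mean of 7777 TPM, 21.2% of the sum, followed by Tpm1, Tnnt2, Tnni3 and Myl3. Tpm1 was the gene that both lists of 5 shared. In TA 25 members were over 100 TPM in every library and 11 over 1000 TPM, and in heart 21 and 8.

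**Figure D1:**
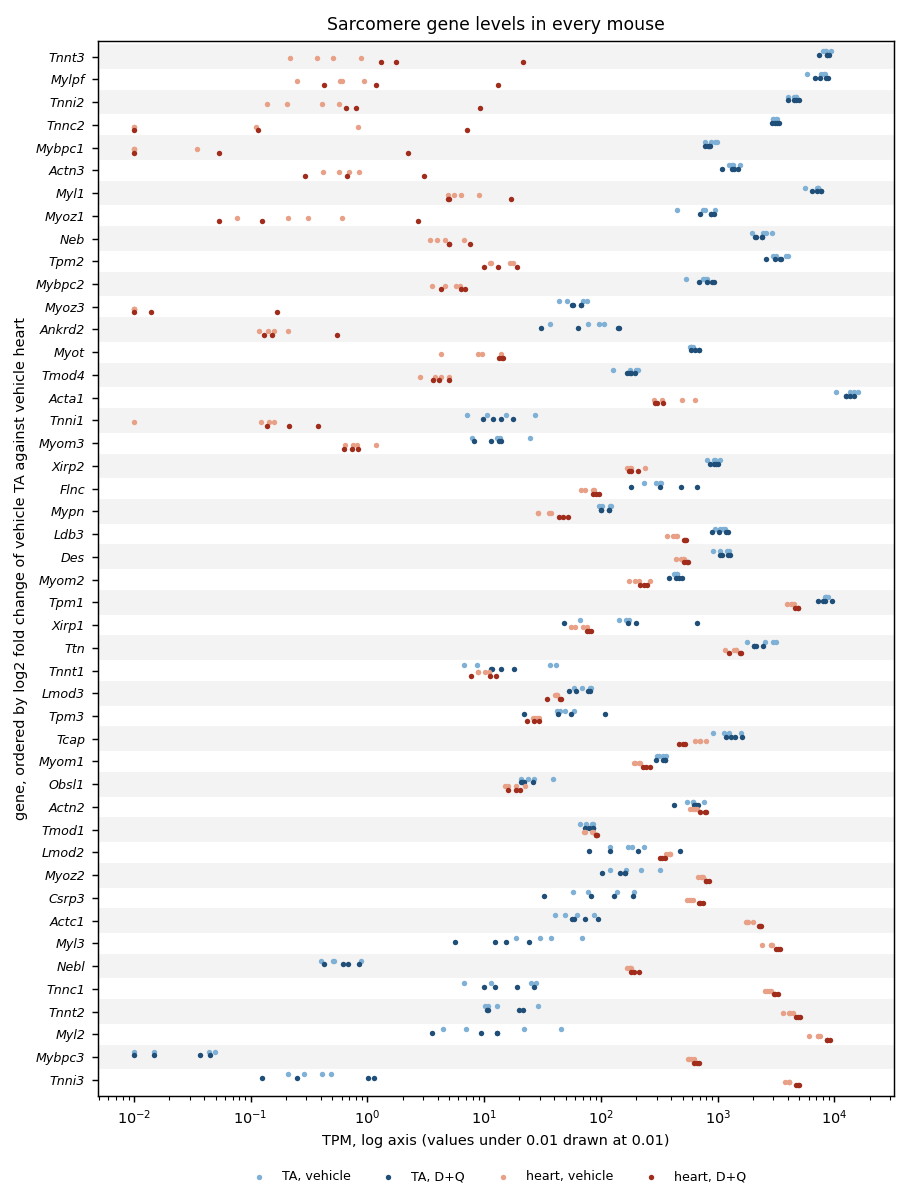
TPM of each of the 46 genes (rows, ordered by log2 fold change of vehicle TA against vehicle heart) in each of the 15 mice, on a log axis with values under 0.01 drawn at 0.01, and each point a mouse coloured by tissue and treatment. Fast skeletal genes at the top are high in TA and near absent in heart, cardiac genes at the bottom the reverse, and genes such as Actn2 and Tmod1 lie at like levels in both.

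The first question was which paralogues carried each sarcomere protein in each tissue. In whole tissue, fewer cells of a type and less RNA per cell cannot be told apart. In vehicle mice 43 of the 46 members differed between TA and heart by limma with Benjamini-Hochberg adjustment over all genes tested (adjusted p under 0.05 and absolute log2 fold change above 0.5), 32 of them higher in TA and 11 higher in heart. Among all 16893 genes tested, 24% were higher and 14.7% lower in TA by the same rule. The members' median log2 fold change, TA against heart, was 1.13, and that of all genes tested 0.16. Of the 46, 10 passed the filter on low values in 1 tissue only and so had to differ. Of the 36 that passed in both, 24 were higher and 9 lower in TA. Rescaling by median-of-ratios factors left 29 members higher and 11 lower while moving the split of all genes from 4056 higher and 2484 lower to 2931 and 3292.

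Actin forms the backbone of the thin filament. Acta1 encodes skeletal alpha-actin and stood at 14582, 15973, 13563 and 10241 TPM in vehicle TA, 12493, 13715, 12579 and 14845 TPM in D + Q TA, 644, 286, 331 and 491 TPM in vehicle heart and 339.6, 304 and 292 TPM in D + Q heart. Actc1 encodes cardiac alpha-actin and stood at 49.3, 62.2, 40.6 and 86.4 TPM in vehicle TA, 72.8, 56.8, 58.5 and 93.7 TPM in D + Q TA, 1779, 1753, 1996 and 1818 TPM in vehicle heart and 2338, 2281 and 2289 TPM in D + Q heart. The tissues did not overlap for either gene. In vehicle mice Acta1 was 31.0-fold higher in TA (log2 fold change 5.01, SE 0.24, limma adjusted p = 4.21e-08) and Actc1 30.8-fold higher in heart (log2 fold change -4.99, SE 0.19). The swap was not symmetrical, since Acta1 was 99.5% of the pair's TPM in TA while Actc1 was 84.0% ± 5.74 (SD, n = 7) of it in heart. The coding sequences of the alpha-actins are nearly alike, so how reads were divided between them by the quantifier is uncertain.

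The promoters of this pair are shown because the 2 genes make up the clearest exchange of near-identical proteins. Each sequence runs from 250 bases before to 50 bases after the annotated start, as RefSeq gives it for GRCm38.p6, an older build than the GRCm39 used for quantification. Capitals mark a CArG box (the serum response factor motif), an MCAT motif (CATTCC) and TATAAA, searched on both strands, and positions are relative to the start.
Acta1, chr8:123894726-123895025, minus strand: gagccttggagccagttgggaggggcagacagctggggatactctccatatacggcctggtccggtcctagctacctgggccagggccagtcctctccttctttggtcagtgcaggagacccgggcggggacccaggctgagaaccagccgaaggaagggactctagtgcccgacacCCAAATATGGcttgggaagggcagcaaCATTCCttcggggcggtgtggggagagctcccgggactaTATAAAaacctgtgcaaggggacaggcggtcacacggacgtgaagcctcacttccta
Actc1, chr2:114052826-114053125, minus strand: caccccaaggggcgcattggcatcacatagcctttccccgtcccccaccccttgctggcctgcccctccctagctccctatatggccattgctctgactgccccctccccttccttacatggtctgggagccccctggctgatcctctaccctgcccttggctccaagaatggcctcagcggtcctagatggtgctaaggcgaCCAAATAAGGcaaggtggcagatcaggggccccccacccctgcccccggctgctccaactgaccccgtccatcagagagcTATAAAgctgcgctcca
Both windows held a CArG box, from -73 to -64 in Acta1 and from -47 to -38 in Actc1. The Acta1 window also held an MCAT motif from -46 to -41 and TATAAA from -7 to -2, and the Actc1 window TATAAA from 34 to 39, downstream of its annotated start. Of the 46 members 35 had a window in that table. A CArG box was present in 6 of the 35 (17.1%), namely Acta1, Actc1, Ldb3, Myl3, Myom1 and Nebl, and in 1.81% of all 27025 genes. An MCAT motif was present in 12 of the 35 (34.3%) and in 16.6% of all genes, a MEF2 motif in 5 (14.3%) and 3.7%, TATAAA in 7 (20.0%) and 15.7%, and an E-box (CANNTG) in 32 (91.4%) and 75.0%. A match is a description of letters and not of a bound site. The CArG group held genes that were higher in TA, such as Acta1 and Ldb3, and genes higher in heart, such as Actc1, Myl3 and Nebl.

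Troponin T ties the troponin complex to tropomyosin. Tnnt3, the fast skeletal form, stood at 8434, 8316, 7935 and 9405 TPM in vehicle TA and 7393, 8689, 9009 and 8662 TPM in D + Q TA, against 0.219, 0.882, 0.369 and 0.508 TPM in vehicle heart and 1.77, 21.5 and 1.305 TPM in D + Q heart. Tnnt2, the cardiac form, stood at 4085, 4384, 4189 and 3624 TPM in vehicle heart and 5049, 4644 and 4862 TPM in D + Q heart, against 12.9, 10.9, 10.1 and 28.6 TPM in vehicle TA and 21.6, 10.6, 19.8 and 10.8 TPM in D + Q TA. Each tissue thus drew nearly all its troponin T message from a single gene, Tnnt3 for 99.6% of it in TA and Tnnt2 for 99.7% in heart. In vehicle mice the log2 fold change, TA against heart, was 13.10 (SE 0.17) for Tnnt3 and -8.11 (SE 0.27) for Tnnt2. Tnnt3 was the highest of the members on this scale, which adds 0.5 TPM to every value. Plain ratios of mean TPM ranked otherwise, at 17227 for Tnnt3 and 103052 for Mybpc1, whose vehicle heart values were near 0. Tnnt1, the slow skeletal form, was low in both tissues, between 6.65 and 41.6 TPM in TA and between 7.73 and 12.5 TPM in heart, and was not called (log2 fold change 0.82, 95% interval -0.31 to 1.96, limma adjusted p = 0.218).

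Troponin I holds the filament off when calcium is low. Tnni2, the fast form, stood at 4712, 3992, 4496 and 4659 TPM in vehicle TA and 3970.1, 4698, 4924 and 4467 TPM in D + Q TA, against 0.203, 0.139, 0.566 and 0.410 TPM in vehicle heart and 0.654, 9.28 and 0.805 TPM in D + Q heart. Tnni3, the cardiac form, stood at 3775, 4106, 4089.8 and 4102 TPM in vehicle heart and 4967, 4910.4 and 4669 TPM in D + Q heart, against 0.412, 0.207, 0.287 and 0.483 TPM in vehicle TA and 0.126, 1.14, 0.249 and 1.01 TPM in D + Q TA. Tnni3 had the lowest log2 fold change of the members on the same scale, TA against heart, at -12.22 (SE 0.12). In plain ratios of mean TPM, heart over TA, it was 11559 and Mybpc3 21708. Tnni3 was 99.96% of troponin I TPM in heart. Tnni2 was 99.7% of it in TA (log2 fold change 12.42, SE 0.16). Tnni1, the slow form, reached 27.1 TPM in TA and stayed at or under 0.381 TPM in heart.

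Troponin C is the calcium sensor. Tnnc2, the fast form, stood at 3204, 3186, 3003 and 2962 TPM in vehicle TA and 2891, 3192, 3358 and 3127 TPM in D + Q TA, against 0, 0, 0.111 and 0.828 TPM in vehicle heart and 0.116, 7.20 and 0 TPM in D + Q heart. Tnnc1, shared by heart and slow fibres, stood at 2765, 2560.5, 2848 and 2647 TPM in vehicle heart and 3266, 3026 and 3099.9 TPM in D + Q heart, against 11.4, 27.8, 6.76 and 25.0 TPM in vehicle TA and 26.8, 9.96, 19.1 and 12.3 TPM in D + Q TA. Tnnc2 varied least of the members in TA, with a coefficient of variation of 4.92% over 8 mice. The log2 fold changes, TA against heart, were 12.17 (SE 0.27) for Tnnc2 and -7.42 (SE 0.36) for Tnnc1.

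The troponin I and T genes lie in pairs in the genome (GRCm39, GENCODE M39). Tnni2 (chr7:141995545-141998147) and Tnnt3 (chr7:142048605-142070280), both on the plus strand and 50457 bases apart, are the fast pair and were both high in TA. Tnnt1 (chr7:4507567-4519381) and Tnni3 (chr7:4521300-4527228), both on the minus strand, are 1918 bases apart, yet Tnni3 was at least 3775 TPM in every heart and Tnnt1 at most 12.5 TPM. Tnni1 (chr1:135707172-135738727) and Tnnt2 (chr1:135763738-135780315), both on the plus strand and 25010 bases apart, were split in the same way, with Tnnt2 at least 3624 TPM and Tnni1 at most 0.381 TPM in every heart.

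Summed over each family, troponin T message stood higher relative to troponin I message in TA than in heart, where the sums were about equal. The ratio of summed TPM was 1.92 ± 0.16 (SD, n = 4) in vehicle TA and 1.02 ± 0.091 (SD, n = 4) in vehicle heart (exact two-sided permutation test, p = 0.0286, the smallest that 70 splits allow, adjusted p = 0.0381 over 4 ratios). The D + Q mice gave 1.87 ± 0.047 (SD, n = 4) in TA and 1.00 ± 0.049 (SD, n = 3) in heart. Alpha-actin over troponin T likewise differed, 1.61 ± 0.36 against 0.56 ± 0.073 in vehicle mice (exact permutation test, p = 0.0286, adjusted p = 0.0381), as did alpha-actin over tropomyosin (1.14 ± 0.21 against 0.54 ± 0.059, with the same p). Troponin I over troponin C was 1.45 ± 0.14 and 1.49 ± 0.11 and did not differ beyond the spread (exact permutation test, p = 0.657). These ratios were chosen after the levels had been seen, and the adjustment over 4 ratios does not account for that choice. The p-values are therefore no independent evidence of a difference.

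Tropomyosin lies along the actin groove. Tpm1 was used by both tissues, at 8728, 8415, 8231 and 8463 TPM in vehicle TA, 7181, 8279, 9563 and 8052 TPM in D + Q TA, 4215, 4467, 4289 and 3916 TPM in vehicle heart and 4898, 4628 and 4838 TPM in D + Q heart. Tpm2 was at 3139, 4000.5, 2999.6 and 3860.5 TPM in vehicle TA and 3117, 3406, 2594 and 3513 TPM in D + Q TA, against 11.3, 17.6, 16.8 and 11.3 TPM in vehicle heart and 13.1, 19.1 and 9.94 TPM in D + Q heart. Tpm2 had the larger log2 fold change, TA against heart, at 7.91 (SE 0.17), beside 1.00 (SE 0.11) for Tpm1. Tpm1 was 71.2% ± 3.62 (SD, n = 8) of tropomyosin TPM in TA and 99.1% in heart. Tpm3 was between 22.0 and 109 TPM in TA and between 23.3 and 29.7 TPM in heart.

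Nebulin runs the length of the skeletal thin filament and nebulette is its short cardiac relative. Neb was between 1963 and 2909.8 TPM in TA and between 3.45 and 7.53 TPM in heart, and Nebl between 0.397 and 0.885 TPM in TA and between 168 and 214 TPM in heart. The log2 fold changes in vehicle mice were 8.93 and -7.37. The heart thus carried less nebulette message than the TA carried nebulin message. At the pointed end of the filament, Tmod4, a skeletal capping protein, was higher in TA (log2 fold change 5.32), while Tmod1, the capping form of both muscles, was between 66.5 and 85.7 TPM in TA and between 71.7 and 92.4 TPM in heart and was not called in either comparison. Leiomodins nucleate and lengthen thin filaments, and here Lmod2 was higher in heart (log2 fold change, TA against heart, -1.15) and Lmod3 higher in TA (0.79).

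**Figure D2:**
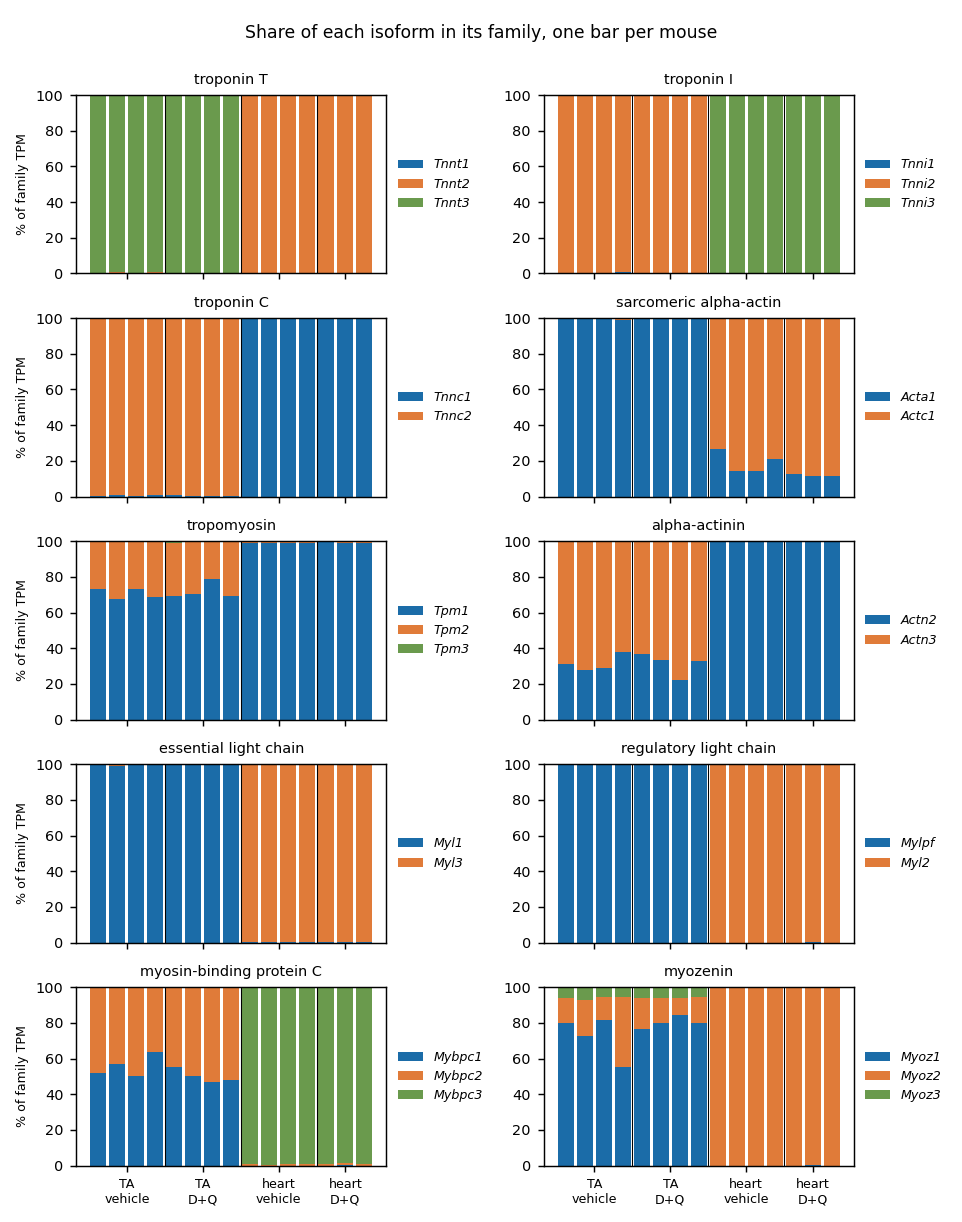
Share of each paralogue in its family's summed TPM, in percent, for 10 families, with a stacked bar for each of the 15 mice, grouped by tissue and treatment. A single paralogue fills nearly the whole bar in the troponin families, while alpha-actin in heart and tropomyosin, alpha-actinin, myosin-binding protein C and myozenin in TA are divided.

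Titin and the proteins around the thick filament followed. Ttn, which is encoded on chromosome 2 (GRCm39 chr2:76534136-76812891), was between 1767 and 3152 TPM in TA and between 1160.1 and 1573 TPM in heart, a log2 fold change of 0.92 in vehicle mice. Among the myomesins, which crosslink thick filaments at the M-band, Myom1 and Myom2 were shared by both tissues and Myom3 was higher in TA (log2 fold change 3.40) at no more than 24.5 TPM. Obsl1, a relative of the M-band protein obscurin, had a log2 fold change of 0.57 in vehicle mice, a call that was lost in several alternative fits (adjusted p of 0.0769 with no filter on low values).

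Myosin-binding protein C regulates the myosin heads, and its paralogues were exchanged outright. Mybpc3, the cardiac form, stood at 629, 559, 590.3 and 572 TPM in vehicle heart and 698, 671 and 621 TPM in D + Q heart and at no more than 0.0494 TPM in any TA. Mybpc1, the slow skeletal form, stood at 882, 984, 775 and 946 TPM in vehicle TA and 851, 824, 781 and 849.8 TPM in D + Q TA, and Mybpc2, the fast form, at 811, 749, 772 and 534 TPM and 688, 809, 891 and 929 TPM. TA carried Mybpc1 and Mybpc2 in nearly equal amounts (52.9% and 47.1% of the family). Its slow troponin genes Tnnt1 and Tnni1 were low, and which fibres carried Mybpc1 was not measured. In heart Mybpc1 was 0.0348, 0, 0 and 0 TPM with vehicle and 0, 2.21 and 0.0531 TPM with D + Q, and Mybpc2 6.22, 3.57, 4.58 and 5.70 TPM and 6.34, 6.81 and 4.24 TPM. The log2 fold changes were 10.78 for Mybpc1, 7.03 for Mybpc2 and -10.12 for Mybpc3.

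The essential and regulatory light chains stiffen and tune the myosin neck. Of the essential chains, Myl1, the fast form, stood at 7288, 7129, 7223 and 5588 TPM in vehicle TA and 6378, 7095, 7621 and 7709 TPM in D + Q TA, against 4.85, 8.95, 5.49 and 6.34 TPM in vehicle heart and 5.00, 17.1 and 4.86 TPM in D + Q heart. Myl3, shared by ventricle and slow fibres, stood at 2850.1, 2381, 2908 and 2876 TPM in vehicle heart and 3398, 3152 and 3268 TPM in D + Q heart, against 37.2, 69.1, 18.6 and 30.2 TPM in vehicle TA and 24.3, 12.3, 5.63 and 15.3 TPM in D + Q TA. The tissues were separated by a log2 fold change of 9.97 for Myl1 and -6.28 for Myl3. Of the regulatory chains, Mylpf, the fast form, stood at 8076, 8373, 7746 and 5856 TPM in vehicle TA and 6844, 7545, 8740.1 and 8419 TPM in D + Q TA, against 0.248, 0.578, 0.926 and 0.610 TPM in vehicle heart and 0.427, 13.2 and 1.20 TPM in D + Q heart. Myl2, the ventricular and slow form, stood at 7254, 6000.2, 7536 and 7183 TPM in vehicle heart and 9087, 8684 and 8699 TPM in D + Q heart, against 7.01, 45.8, 4.46 and 21.9 TPM in vehicle TA and 12.9, 12.8, 3.59 and 9.41 TPM in D + Q TA. The log2 fold changes were 12.77 for Mylpf and -8.96 for Myl2, and each chain was close to absent in the tissue that does not use it. Vehicle TA replicate 4 had the lowest Myl1 and Mylpf of the TA mice.

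Alpha-actinin crosslinks actin at the Z-disc. Actn2, used in heart and in all skeletal fibres, stood at 614, 609, 545 and 767 TPM in vehicle TA, 626, 657, 426 and 683 TPM in D + Q TA, 671, 576, 644 and 613 TPM in vehicle heart and 792, 776 and 700.2 TPM in D + Q heart. Actn3, the fast fibre form, stood at 1360.0, 1561, 1332 and 1246 TPM in vehicle TA and 1079, 1324, 1497 and 1391 TPM in D + Q TA, against 0.690, 0.576, 0.415 and 0.851 TPM in vehicle heart and 0.665, 3.05 and 0.289 TPM in D + Q heart. Actn2 in TA and heart overlapped in vehicle mice (log2 fold change 0.01, 95% interval -0.25 to 0.27), with its sign turning to -0.17 under median-of-ratios scaling. TA thus had Actn3 on top of a cardiac level of Actn2, with Actn3 at 68.6% ± 5.08 (SD, n = 8) of the family.

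The myozenins, Z-disc binders of the phosphatase calcineurin, differed in their shares between the tissues. Myoz1, the fast form, stood at 941, 782, 753 and 450.1 TPM in vehicle TA and 709.9, 869, 927 and 871 TPM in D + Q TA, against 0.309, 0.210, 0.0767 and 0.608 TPM in vehicle heart and 0.0534, 2.74 and 0.126 TPM in D + Q heart. Myoz2, the slow and cardiac form, stood at 737, 755, 719 and 679 TPM in vehicle heart and 793, 802 and 848 TPM in D + Q heart, against 164, 219.9, 119.8 and 320.1 TPM in vehicle TA and 159, 147, 102 and 161 TPM in D + Q TA. Myoz2 stayed over 100 TPM in every TA mouse, at 17.7% of the family against 76.3% for Myoz1. Myoz3 stood at 70.8, 75.5, 51.1 and 43.9 TPM in vehicle TA and 57.6, 68.1, 67.8 and 56.9 TPM in D + Q TA and was at or under 0.168 TPM in heart. Vehicle TA replicate 4 stood apart, with 55.3% Myoz1 and 39.3% Myoz2.

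Most other Z-disc genes were expressed in both tissues and higher in TA. Log2 fold changes, TA against heart in vehicle mice, were 1.18 for Des (desmin, the intermediate filament that links Z-discs), 1.35 for Ldb3 (an actinin-binding PDZ-LIM protein), 0.76 for Tcap (telethonin, the cap on the titin end), 1.73 for Mypn (myopalladin), 1.88 for Flnc (filamin C), 2.29 for Xirp2 and 0.97 for Xirp1, all called by limma. Myot, which encodes myotilin, an actinin and actin binder, and Ankrd2, a stretch-responsive ankyrin repeat gene, differed more, by 6.05 and 6.82. Csrp3 (muscle LIM protein) was the other Z-disc gene besides Myoz2 with a higher level in heart, at a log2 fold change of -2.46.

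In the D + Q mice, which are different animals, the same comparison called 28 members higher and 10 lower in TA (background 21.2% and 15.6% of 16381 genes), and 20 and 8 of the 36 that passed the filter in both tissues. By expression every D + Q TA mouse was male and every D + Q heart female. Tissue and sex therefore cannot be told apart here, and a fit with labelled sex rests on the heart whose label and expression differ. The median was 1.14 for the members and 0.10 for all genes tested, and rescaling by median-of-ratios factors left 27 higher and 10 lower, while all genes went from 3472 and 2556 to 2949 and 3052. The exchanges in the alpha-actin, troponin, nebulin, myosin-binding protein C, light chain and myozenin families kept their direction and calls, including Tnnt3 at 10.87 (SE 0.76), Tnni2 at 10.84 (SE 0.66), Tnni3 at -12.19 (SE 0.33) and Mybpc3 at -10.31 (SE 0.10). The standard errors of Tnnt3 and Tnni2 were wider than in vehicle mice. D + Q heart replicate 2 held 21.5 TPM of Tnnt3, 13.2 TPM of Mylpf and 9.28 TPM of Tnni2. Over 19 skeletal genes listed after these values had been seen, its excess over the median of the other hearts was between 0.116% and 0.5% of the TA mean, with a median of 0.226%, although its Myot level lay inside the range of the other hearts. Not called in D + Q mice were Actn2, Tnnt1, Tpm3, Obsl1, Myom1, Tmod1, Lmod2 and Xirp1. Of the 49 other sarcomere genes, which serve assembly, turnover and Z-disc signalling, 30 were higher and 7 lower in TA in vehicle mice and 28 and 6 in D + Q mice.

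The second question was whether D + Q changed the sarcomere genes in TA. No member of the 44 tested was called by limma with 1 surrogate variable, and neither was any of the 16298 genes tested (0%), of which 488 (2.99%) had an unadjusted p under 0.05. Tnni3 and Mybpc3 fell below the filter on low values and were not tested. Log2 fold changes, D + Q against vehicle, were positive for 26 members and negative for 18, with a median of 0.03 (all genes -0.07), and no member had groups that did not overlap (background 1.52%). Intervals were narrow for the abundant fast genes, from -0.19 to 0.30 for Tnnc2, from -0.22 to 0.32 for Tnni2 and from -0.24 to 0.30 for Tnnt3.

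Myl3 was the 1 member of the 44 tested with an unadjusted p under 0.05. Beside 2.99% of all genes tested, that count does not stand out. It stood at 24.3, 12.3, 5.63 and 15.3 TPM with D + Q and 37.2, 69.1, 18.6 and 30.2 TPM with vehicle, so the groups overlapped. Its log2 fold change was -1.57 (SE 0.43, limma adjusted p = 0.999), ranging from -2.18 without vehicle replicate 3 to -1.01 without D + Q replicate 3, and it was -1.02 in males alone. Among the vehicle mice, the 2 females (replicates 2 and 4) were above both males for some slow and cardiac genes, such as Tnnt1, Tnnc1, Tnni1, Myl2, Myoz2 and Actc1. They were not for others, namely Myl3 itself, Tnnt2, Tnni3 and Csrp3. Tnnt1 stood at 8.69, 36.7, 6.65 and 41.6 TPM with vehicle and 17.8, 11.5, 11.7 and 13.9 TPM with D + Q. With no female in the D + Q TA group, the log2 fold change of Tnnt1 went from -0.25 to 0.79 and that of Myl2 from -0.59 to 0.59 in males alone. The fit in males alone also left out the surrogate variable.

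The Myl3 promoter is shown because Myl3 had the lowest unadjusted p among the members in TA and is among the 6 genes with a CArG box. It was chosen after its values had been seen. Capitals mark a CArG box from -85 to -76 and MCAT motifs from -177 to -172 (on the other strand, GGAATG) and from -149 to -144.
Myl3, chr9:110763428-110763727, plus strand: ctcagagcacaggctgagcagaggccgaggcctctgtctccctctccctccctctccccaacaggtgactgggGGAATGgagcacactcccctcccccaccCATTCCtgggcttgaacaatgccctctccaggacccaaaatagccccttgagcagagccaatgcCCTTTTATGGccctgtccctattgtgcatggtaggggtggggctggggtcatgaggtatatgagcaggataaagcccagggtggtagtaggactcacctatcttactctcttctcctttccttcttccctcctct
No TATAAA was found in this window.

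A different set of genes varied within the D + Q group. Xirp1, which encodes an actin-binding repeat protein, stood at 669, 201, 47.9 and 169 TPM with D + Q and 142, 66.3, 173 and 164 TPM with vehicle. Flnc stood at 666, 319.9, 181 and 483 TPM with D + Q and 318, 232, 325 and 294 TPM with vehicle. Lmod2 stood at 474, 209, 79.6 and 119.6 TPM with D + Q and 172, 184, 120.1 and 233 TPM with vehicle. D + Q replicate 1 was the highest and replicate 3 the lowest of the D + Q mice for each of these, and replicate 1 had the highest and replicate 3 the lowest surrogate variable of all 8 mice, at 0.703 and -0.419. Csrp3, Tpm3 and Ankrd2 were also lowest in replicate 3. Xirp1 had a coefficient of variation of 95.7% over the 8 TA mice, against a median of 16.1% over the 43 members with a mean of at least 1 TPM.

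**Figure D3:**
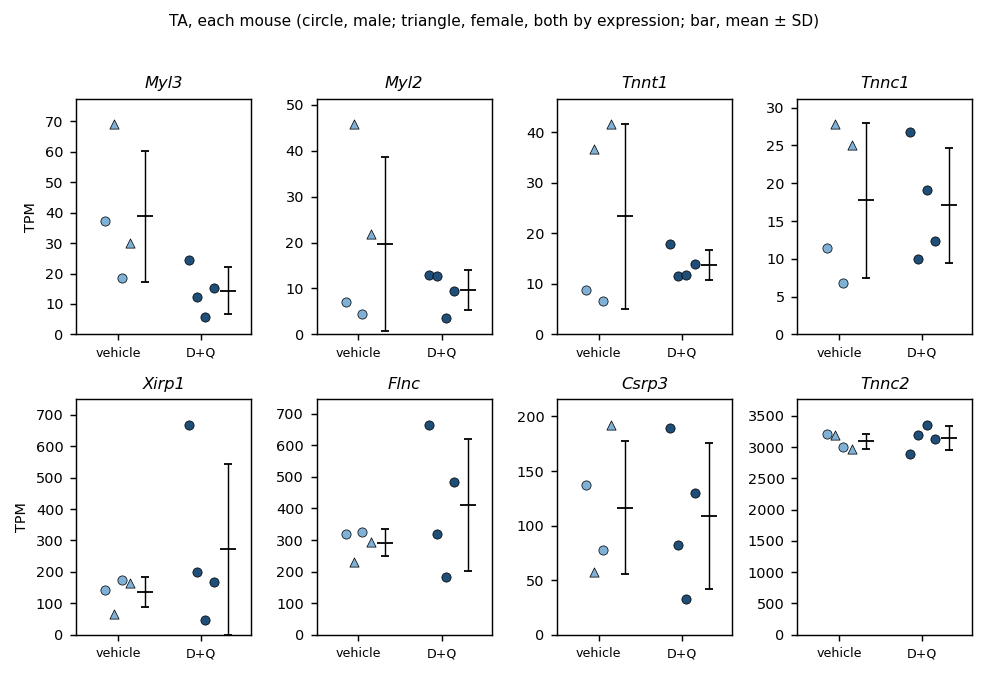
TPM of 8 genes in each TA mouse, vehicle on the left and D + Q on the right of each panel, with circles for males and triangles for females by expression and bars giving the mean ± SD (n = 4). The 2 female vehicle mice were above both male vehicle mice for Myl2, Tnnt1 and Tnnc1. Relative to its mean, Xirp1 spread most within D + Q and Tnnc2 least.

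The third question was whether D + Q changed them in the heart. No member of the 40 tested was called by limma with labelled sex in the model, while 17 of all 16132 genes tested were called higher (0.105%) and 34 lower (0.211%). With sex read from expression the count of members called was also 0. At an unadjusted p under 0.05 there were 20 members, and 17.6% of all genes. Tnni1, Tnnc2, Mybpc1, Myoz1, Myoz3 and Ankrd2 were below the filter, and Actn3, Tnnt3, Tnni2 and Mylpf passed it in 1 group only. Log2 fold changes, D + Q against vehicle, were positive for 31 members and negative for 9, with a median of 0.20 beside a median of -0.0025 over all genes, and of 0.17 for the 36 that passed in both groups.

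The groups did not overlap for 16 members that were higher with D + Q and 2 that were lower (background 9.63% and 5.57%). Of the 36 that passed the filter in both groups, 14 were higher and 2 lower. By role, 8 of the higher genes were thin filament, 3 thick filament or M-band and 5 Z-disc genes. They were the main cardiac forms of most families (Actc1, Tnnt2, Tnni3, Tnnc1, Tpm1, Tmod1, Myl2, Myl3, Myom1, Actn2, Myoz2, Ldb3, Csrp3 and Mypn) and the fast genes Tnnt3 and Tnni2. Under median-of-ratios scaling 14 remained, without Myl3 and Myoz2, and leaving out the mitochondrial genome, which took between 26.2% and 30.0% of heart TPM and whose removal raised the share of all genes to 14.2%, gave 21 higher.

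Other gene lists also differed in this comparison. The 9 atrial genes were all lower with D + Q, with 5 called (Myl7, Myl4, Sln, Sbk3 and Dkk3) and a median log2 fold change of -2.76. Fibroblast genes were lower in 7 of 7, with 0 called by limma (5 at an unadjusted p under 0.05) and a median of -0.41 (summed TPM 621 to 905 with vehicle and 474 to 582 with D + Q, Col1a1, Col1a2 and Col3a1 among them). Cardiomyocyte genes were higher in 7 of 7, with 0 called by limma (2 at an unadjusted p under 0.05) and a median of 0.24 (summed 7212 to 8068 TPM and 8972 to 9946 TPM), and the 49 other sarcomere genes had a median of 0.13 over the 46 tested, with 19 higher and 1 lower without overlap. Members summed to between 3.27% and 3.54% of TPM in vehicle hearts and between 3.92% and 4.13% in D + Q hearts, and to between 6.80% and 7.75% and between 6.73% and 7.56% in vehicle and D + Q TA. The part of these lists in the members' values was not tested.

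Actc1, given above, had a log2 fold change of 0.32 (SE 0.065, limma adjusted p = 0.098), with mean TPM 25.4% higher. Log2 fold changes were 0.35 for Myl2, 0.27 for Actn2, 0.27 for Myl3, 0.26 for Tnni3, 0.24 for Tnnt2, 0.21 for Tnnc1, 0.17 for Tpm1 and 0.17 for Myoz2. Every one of these was a difference under 0.5 on the log2 scale. Csrp3 stood at 566, 543, 612 and 595 TPM with vehicle and 746, 708 and 698 TPM with D + Q (log2 fold change 0.31). Ldb3 stood at 443, 366, 447 and 413 TPM and 523, 535 and 519.5 TPM (0.34), Myom1 at 217, 193, 213 and 197 TPM and 265, 244 and 229 TPM (0.26), and Tmod1 at 73.4, 83.2, 84.8 and 71.7 TPM and 92.4, 91.5 and 90.5 TPM (0.21). For these 4 genes the lowest D + Q heart was above the highest vehicle heart.

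Mypn, whose protein binds actinin and nebulin at the Z-disc, had the largest log2 fold change among the cardiac members that did not overlap. It stood at 35.7, 28.9, 37.3 and 29.2 TPM with vehicle and 47.6, 52.1 and 44.0 TPM with D + Q (log2 fold change 0.53, SE 0.11, limma adjusted p = 0.103). Myot stood at 14.0, 4.25, 8.78 and 9.51 TPM and 13.3, 14.3 and 14.4 TPM (log2 fold change 0.79, limma adjusted p = 0.207), with vehicle replicate 1 inside the D + Q range. Tnnt3 and Tnni2, given above, had log2 fold changes of 2.05 and 1.50, and without replicate 2 and its trace of fast transcripts these were 1.07 and 0.59.

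Tcap ran the other way. It stood at 645, 699.8, 711 and 795 TPM with vehicle and 527, 468 and 505 TPM with D + Q. The groups were well apart, with a log2 fold change of -0.50 (SE 0.084, limma adjusted p = 0.081), and in a model with no covariate it was called at an adjusted p of 0.0457. Beside it, 2 clock genes named after their values had been seen also separated the hearts, Bmal1 at 1.35 to 3.15 TPM with vehicle and 8.55 to 10.2 TPM with D + Q, and Dbp at 50.2 to 77.3 TPM and 8.42 to 15.4 TPM. Their separation is between whole groups of hearts, and its part in the difference of Tcap or of any other member was not tested. Lmod2 stood at 394, 363, 386 and 387 TPM with vehicle and 352, 335 and 320.1 TPM with D + Q (log2 fold change -0.19, limma adjusted p = 0.166) and overlapped under either other scaling.

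Acta1, the skeletal actin that the adult heart keeps at a low level, was the lowest after Tcap. Its 4 vehicle and 3 D + Q values, given above, overlapped, and the 2 male vehicle hearts were higher than the 2 female ones. The log2 fold change was -0.34 (95% interval -0.84 to 0.15, limma adjusted p = 0.445) with labelled sex in the model, 0.01 with sex read from expression and 0.06 without D + Q replicate 3. As a share of the 2 alpha-actins, Acta1 was 19.0% ± 6.05 (SD, n = 4) with vehicle and 11.9% ± 0.70 (SD, n = 3) with D + Q, and the groups did not overlap. Vehicle males were at 26.6% and 21.3%, vehicle females at 14.0% and 14.2%, and D + Q hearts at 12.7%, 11.75% and 11.3%. All 3 D + Q hearts read female by expression, and the part of sex in this share was not tested. Of 36 paralogue shares in heart, 3 did not overlap (Tnnt3, Acta1 and Actc1), and of the 36 in TA, 0. A background of shares was not computed. For TPM rather than shares, 9.63% of all genes tested were higher and 5.57% lower without overlap in heart, and 1.52% did not overlap in TA. The Acta1 and Actc1 shares mirror each other and are a single result, and Tnnt3 was at most 0.46% of its family in heart.

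**Figure D4:**
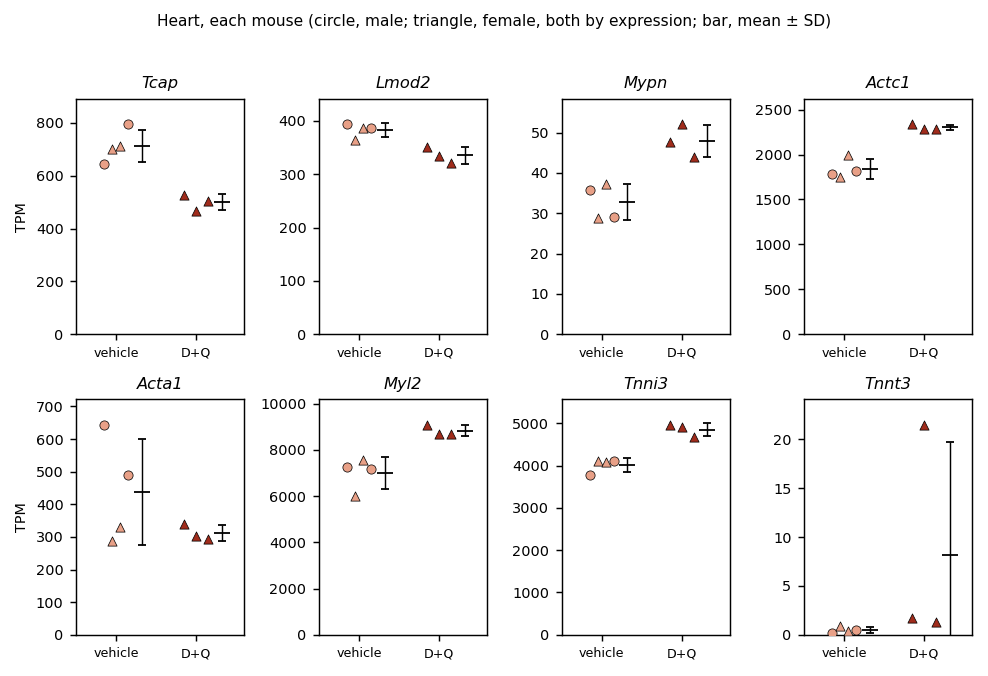
TPM of 8 genes in each heart, vehicle on the left (n = 4) and D + Q on the right (n = 3) of each panel, with circles for males and triangles for females by expression and bars giving the mean ± SD. Tcap and Lmod2 were lower and Mypn, Actc1, Myl2 and Tnni3 higher in every D + Q heart, Acta1 overlapped, and Tnnt3 stood out in a single D + Q heart.

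**Figure D5:**
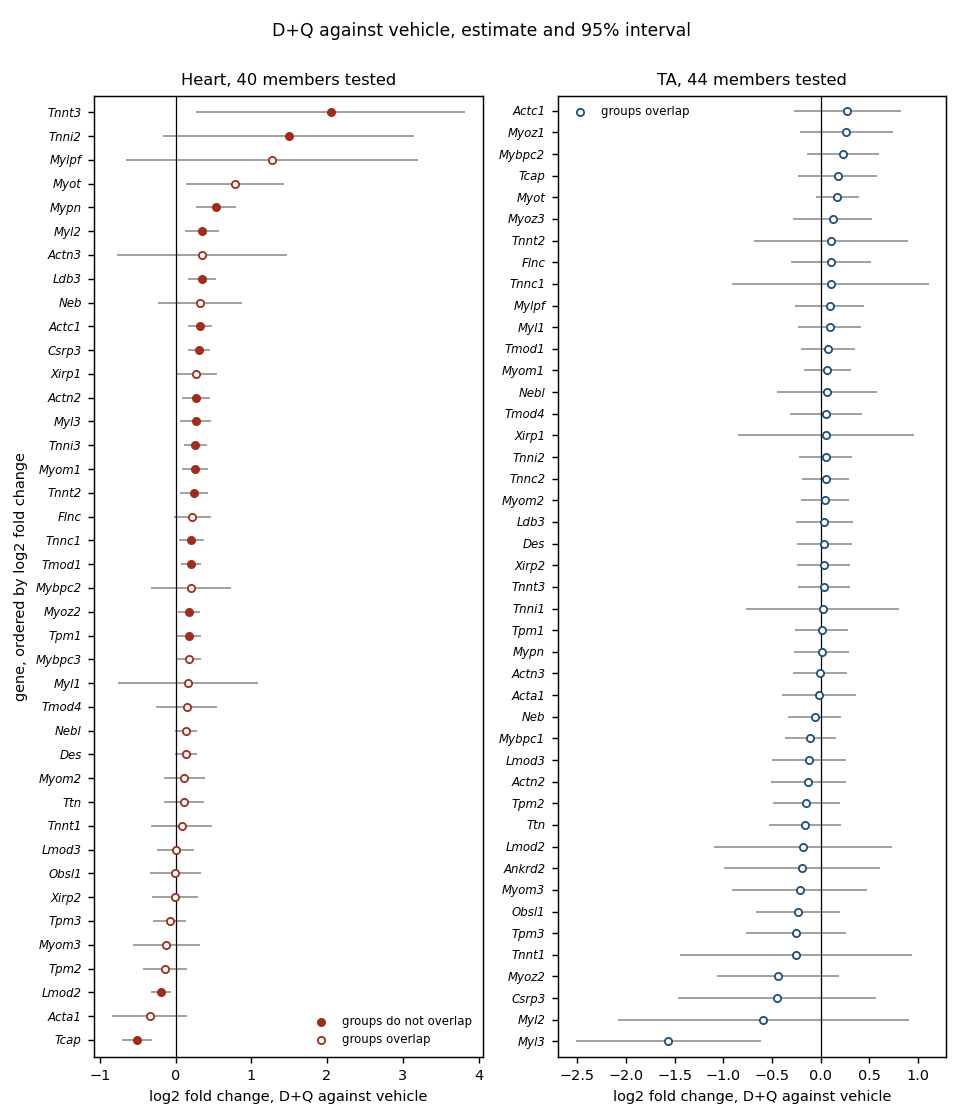
Log2 fold change, D + Q against vehicle, of each member tested in heart (40, left) and TA (44, right), as the limma estimate with its 95% interval on separate scales, with filled points where no value of one group overlapped the other. In heart 18 members have filled points, 16 above 0 and 2 below, and in TA 0.

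The last question was whether the effect of D + Q differed between the tissues. The difference itself, fitted over all 15 libraries with labelled sex, was not called for any of the 46 members (background 0.056% higher and 0.0056% lower of 17868 genes), and the smallest limma adjusted p among them was 0.965. At an unadjusted p under 0.05 there were 6 members, and 754 (4.22%) of all genes. They were Tnnt3 (difference of log2 fold changes, TA minus heart, -1.78), Myl3 (-1.50), Myot (-0.78), Mypn (-0.51), Ldb3 (-0.36) and Tcap (0.60). Tcap, for example, had a log2 fold change of 0.18 in TA beside -0.50 in heart. These values come from the separate fit of each tissue, with other covariates, and need not subtract to the tested difference. Median differences were -0.12 over the members and -0.01 over all genes.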

How the data were processed

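Total RNA from snap-frozen TA and heart was sequenced as mRNA libraries, 1 per mouse. The authors trimmed reads with Trim Galore 0.6.10, ran Salmon 1.10.3 with GRCm39 as reference, used tximport to obtain gene-level values and deposited these as TPM, scaled to the same sum in each library. The annotation release is not given in the sources used here. TPM keeps no depth, so all precision comes from the spread between mice, and the study's count test was not run.

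limma 3.58.1 (R 4.3.3, lmFit and eBayes with a trend) was fitted to log2(TPM + 0.5), a scale that shrinks the differences of weakly expressed genes. A gene entered a fit if 3 or more of its libraries reached 0.5 TPM. After Benjamini-Hochberg adjustment over all genes in the fit, a call needed an adjusted p under 0.05 together with a log2 fold change beyond 0.5 in either direction. The models held 1 surrogate variable (5 rounds) for TA, labelled sex for heart and for the difference between tissues, and no covariate between tissues. The code was tested on simulated data. Samples were grouped by their labels.

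The 46 members and all gene lists were chosen with earlier results of these data known. Any member may be named. Values in every mouse are given for families exchanged between tissues (paralogues with at least 5% of a family's TPM) and for members that, in a D + Q comparison, were called, had an unadjusted p under 0.05 with an absolute log2 fold change above 0.5, or did not overlap. Positions are from GENCODE M39, in which 56236 of 56980 identifiers were found, and promoters from RefSeq (GRCm38.p6). Replicate numbers are shared between groups, but the mice are different animals, so the numbers pair nothing. Alternatives were other pseudocounts, filters and scalings, no trend, other covariates, males only, a replicate block and leaving out each mouse.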

Additional observations from a re-analysis of the deposited data

Results flagged for a closer look

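Of 121 sets of 4 mice, each a member's values in 1 group, 6 had a mouse far from the other 3 by Dixon's test at the 95% level, where chance gives about 1 in 20. Vehicle TA replicate 4 had 28.6 TPM of Tnnt2, the cardiac troponin T, against 12.9 TPM in the next mouse. The same mouse had 5587.87 TPM of Myl1, the fast essential light chain, against 7129 TPM in the next. It also had the highest share of Myoz2 and the largest mitochondrial share of TPM (29.1%) in TA.

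D + Q TA replicate 2 had 2466.9 TPM of Ttn, above 2114.75 TPM in the next mouse. Among vehicle hearts, replicate 1 had the lowest Tnni3 (3774.78 TPM, next 4089.79) and the highest Xirp2 (239.8 TPM, next 180.06), and replicate 2 had the lowest Myl3 (2381.01 TPM, next 2850.1). No cause was tested for any of the 6.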

How the results depend on the processing

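Members called kept their counts within 1.5 times under other pseudocounts, filters, scalings, covariates and without any single mouse, except for heart members called lower with D + Q, which went from 0 to 1 (Tcap) with no covariate. Leaving out mice gave 31 to 33 higher and 11 lower in vehicle TA, 27 to 30 and 9 to 11 in D + Q TA, and 0 for either drug comparison and for their difference. Heart members lower with D + Q without overlap went from 2 to 1 under median-of-ratios scaling and to 1 without the mitochondrial genome, Lmod2 overlapping in both. These overlap counts, and sex read from expression for the difference between tissues, were alternatives chosen after seeing the data.

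With the replicate number as a block, 31 and 11 members were called in vehicle mice, 28 and 10 in D + Q mice and 0 in each tissue's drug comparison. Correlations of same-numbered mice averaged 0.0142, -0.0115, -0.122 and 0.00349 in the 4 comparisons.

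Values near 0 changed sign. Actn2, TA against heart in vehicle mice, was -0.17 under median-of-ratios scaling, -0.031 without the mitochondrial genome and -0.086 to 0.078 with a mouse left out, and Tmod1 -0.067 to 0.049. In TA with D + Q, Myl2 was 0.59 and Tnnt1 0.79 with labelled sex replacing the surrogate variable. Males alone, fitted with no surrogate variable, had to give the same estimates because every D + Q TA mouse was male. With a mouse left out, Myl2 ranged from -1.39 to 0.57 and Tnnt1 from -0.88 to 0.60. Acta1 in heart was 0.014 with sex read from expression and -0.49 to 0.060 with a heart left out. Causes were not tested.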
